A study of Mus musculus with 6 samples.

Results

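Immediate early genes are switched on within minutes of a stimulus, and 8 of them are described here on arrays of ob/ob mice (B6.V-Lepob/J), a strain without functional leptin that becomes obese and insulin resistant. Transcription factors make up 5 of them: Fos, Egr1, Atf3, Myc and the orphan nuclear receptor Nr4a2. The others, Gadd45b, Cyr61 (now Ccn1) and Dusp1, encode a stress sensor, a secreted matrix protein and a phosphatase that are induced alongside them. The genes were chosen by measured values: with earlier results known, they were taken for their differences between MCSE and PBS on the muscle and liver arrays, with opposite signs between the 2 labels noted. Those differences are therefore given as a description, without a test. They are 8 of the 16675 genes named on the array, and all 12 of their probes are accounted for.

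The samples fell into 6 groups of 1 array each. The tissues labelled muscle, adipose tissue and liver came from mice given MCSE, an aqueous extract of Momordica charantia (bitter melon) seeds, and from mice given PBS, which the titles call Mock. All mice were ob/ob, had been fasted for 4 h, and received the oral dose 15 min ahead of 1 g/kg intraperitoneal glucose. Tissues were taken 4 h after the glucose, and the labels leave unstated how many mice stand behind an array. Each group had 1 array, so the differences lack replication and carry no p-value.

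Immediate early genes need no new protein for their induction. Factors already present in the cell, such as serum response factor with its ternary complex partners, CREB and NF-kB, are activated by phosphorylation or release and turn the genes on. The transcripts are short-lived, so their level follows the stimulus closely. Growth factors and insulin, cytokines, tissue injury, heat and handling are all known to induce them in muscle and liver.

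A class of control site can be read directly from the promoters. The letters TGACG, which form the core of the cyclic AMP response element (CRE) bound by CREB and ATF proteins, were searched on both strands from 250 bases before to 50 after each RefSeq start site (GRCm38.p6). Promoters of 6 members were matched, and those of Egr1 and Myc were not used here. The letters stood in 5 of the 6, those of Fos, Atf3, Nr4a2, Cyr61 and Dusp1, and in 6837 of all 32851 promoters (20.8%). Among the other immediate early genes listed below, 26 of 58 matched promoters (44.8%) held them. The full palindrome TGACGTCA, which contains TGACG on both strands, stood only in Dusp1 among the 6, and in 1.79% of all promoters. The upstream stretches of 4 members are shown, 2 of genes that were higher with MCSE on both the muscle and the liver arrays (Fos, Atf3) and 2 that were higher on the liver arrays with less than a 2-fold difference on the muscle arrays (Nr4a2, Dusp1). Each runs 5′ to 3′ over the 250 bases before the start site, and capitals mark TGACG and the TATA box letters TATAAA on either strand. The stretches lie at chr12:85473640-85473889, plus strand (Fos), chr1:191183334-191183583, minus strand (Atf3), chr2:57124004-57124253, minus strand (Nr4a2) and chr17:26508473-26508722, minus strand (Dusp1).
Fos: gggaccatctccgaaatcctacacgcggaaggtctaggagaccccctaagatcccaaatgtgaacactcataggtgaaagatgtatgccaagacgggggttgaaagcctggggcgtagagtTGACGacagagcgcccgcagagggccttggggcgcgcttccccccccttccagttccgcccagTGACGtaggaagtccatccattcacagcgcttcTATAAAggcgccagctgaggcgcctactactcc
Atf3: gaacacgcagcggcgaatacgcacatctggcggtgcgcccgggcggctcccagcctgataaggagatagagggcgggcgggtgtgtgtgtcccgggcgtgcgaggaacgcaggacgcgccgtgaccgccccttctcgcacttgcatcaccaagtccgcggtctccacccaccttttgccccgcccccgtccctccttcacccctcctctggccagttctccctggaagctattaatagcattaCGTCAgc
Nr4a2: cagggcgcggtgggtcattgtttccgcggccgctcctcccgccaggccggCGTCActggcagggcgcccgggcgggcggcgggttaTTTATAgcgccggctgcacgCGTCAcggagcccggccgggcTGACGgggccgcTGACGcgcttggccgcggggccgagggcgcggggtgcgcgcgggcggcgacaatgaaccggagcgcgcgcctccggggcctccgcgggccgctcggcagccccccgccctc
Dusp1: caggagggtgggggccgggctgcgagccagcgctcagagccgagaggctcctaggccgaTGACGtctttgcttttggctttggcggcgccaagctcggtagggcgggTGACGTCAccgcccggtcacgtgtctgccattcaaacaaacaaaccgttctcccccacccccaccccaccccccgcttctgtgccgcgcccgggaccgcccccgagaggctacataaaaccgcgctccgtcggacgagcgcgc

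In the Fos promoter the CRE letters nearest the start lay at positions -66 to -62, counted back from the base before the start site, and a TATA box at -33 to -28. In Atf3 they lay at -7 to -3. Nr4a2 held them at 4 places between -200 and -107, and Dusp1 had its full CRE at -143 to -136. The AP-1 site TGACTCA, to which Fos itself binds with Jun partners, was in 0 of the 6 windows and in 5.20% of all promoters. The CArG box of serum response factor was in 0 of the 6 and in 1.63% of all. Sites outside the windows, and the promoters of Egr1 and Myc, were not searched, so these 0 counts do not show that the genes lack such sites. The EGR site GCGNGGGCG was found in Nr4a2 and Gadd45b, against 5.55% of all promoters, and in Nr4a2 it overlapped the GC box GGGCGG, which all 6 held, against 35.7%. Among the other immediate early genes, 25.9% of matched promoters held the EGR site and 74.1% the GC box. A match is a description of the letters and says nothing of binding in these tissues.

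The values are one-colour intensities on a log2 scale, with 8.95 as the median of all probes and 16.41 as the highest value. Pairs of probes for the same gene did not give the same MCSE minus PBS difference, and their spread (SD per probe) was 0.517 for muscle, 0.611 for liver and 1.74 for adipose. It is the gauge of error used here, and it holds no variation between mice. Both muscle arrays had all 6 skeletal muscle markers in the upper quartile, but also 4 of 5 adipocyte markers, and 3 (MCSE) and 2 (PBS) of 5 hepatocyte markers. The other labels were mixed too: the MCSE liver and MCSE adipose arrays correlated at 0.982 over all probes and carried adipocyte, hepatocyte and kidney markers together, as did the PBS liver array. The PBS adipose array correlated with the others at 0.307 to 0.517 and had 2 of 5 adipocyte markers in its upper quartile. "Liver" and "adipose" below are the labels of arrays.

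MCSE arrays showed 7 of the 8 genes higher by 2-fold or more on the liver label and 4 in muscle, where Egr1 was lower. The AP-1 subunit gene Fos (probe mMC013536) lay at 11.95 on the MCSE muscle array, against 10.83 on the PBS muscle array. On the liver arrays it lay at 12.66 with MCSE, against 10.77 with PBS. It was thus 1.11 higher in muscle (2.17-fold) and 1.88 higher on the liver label (3.69-fold). Both PBS arrays had nearly the same level, 0.06 apart, and both MCSE arrays lay above them.

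Egr1 (mMC010986), a zinc finger factor that binds GC-rich promoters, had opposite signs in the pairs. It lay at 9.44 on the MCSE muscle array, against 11.36 on the PBS muscle array. On the liver label it lay at 12.83 with MCSE, against 9.50 on the PBS liver array. The differences were -1.92 in muscle (3.78-fold lower) and 3.33 on the liver label. The MCSE muscle and PBS liver arrays had about the same low level, and the PBS muscle array stood between them and the MCSE liver array. The gap of 5.25 between the liver and muscle differences was the widest of the 8 genes, and it was not tested.

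Atf3 (mMC009367) encodes a member of the ATF/CREB family that is induced by many stresses, and its differences were much the same size in the 2 pairs. It lay at 12.17 on the MCSE muscle array, against 8.77 on the PBS muscle array. The liver-labelled arrays had 11.93 with MCSE, against 8.95 with PBS. The differences were 3.40 (10.5-fold) and 2.98 (7.88-fold). Both PBS levels were near the median of all probes, where a weak transcript can hardly be told from background, so the folds depend on a dim baseline.

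Myc, a driver of ribosome production and cell growth, was read by 2 probes. The brighter (mMC023043) lay at 10.999 on the MCSE muscle array, against 9.76 on the PBS muscle array. The liver-labelled arrays had 12.84 with MCSE, against 9.73 with PBS. The differences were 1.24 and 3.11. As for Fos, the PBS levels of the 2 labels were close, 0.04 apart, and the MCSE liver array was the brighter of the 2 MCSE arrays.

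Nr4a2 (mMC020469) encodes a nuclear receptor that acts without a known hormone and responds to cyclic AMP in many cells. In muscle it was bright on both arrays, at 12.56 with MCSE and 12.61 with PBS. It lay at 11.62 on the MCSE liver array, against 8.50 on the PBS liver array, which is below the median of all probes. The difference was -0.05 in muscle, under the SD per probe, and 3.12 on the liver label. Of these 4 arrays, the PBS liver array alone was dim.

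Gadd45b, Cyr61 and Dusp1 carry the response beyond transcription. Gadd45b (mMC002384), an activator of stress kinase signalling, lay at 13.04 on the MCSE muscle array, against 12.75 on the PBS muscle array. With MCSE it lay at 13.18 on the liver label, against 10.02 with PBS. Its pattern was that of Nr4a2, with a difference of 0.30 in muscle and 3.16 on the liver label and the PBS liver array the lowest of the 4. Dusp1 (mMC015797), the phosphatase that inactivates MAP kinases, is itself switched on by the kinases it restrains. It lay at 13.20 on the MCSE muscle array, against 13.29 on the PBS muscle array. With MCSE it lay at 14.60 on the liver label, against 12.50 with PBS. The differences were -0.10 and 2.11.

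Cyr61 was the exception on the liver label. Its brighter probe (mMC020356) lay at 13.03 on the MCSE muscle array, against 11.91 on the PBS muscle array, a difference of 1.12. On the liver label it lay at 13.73 with MCSE, against 12.84 with PBS, and the difference of 0.90 was just short of 2-fold.

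**Figure D1:**
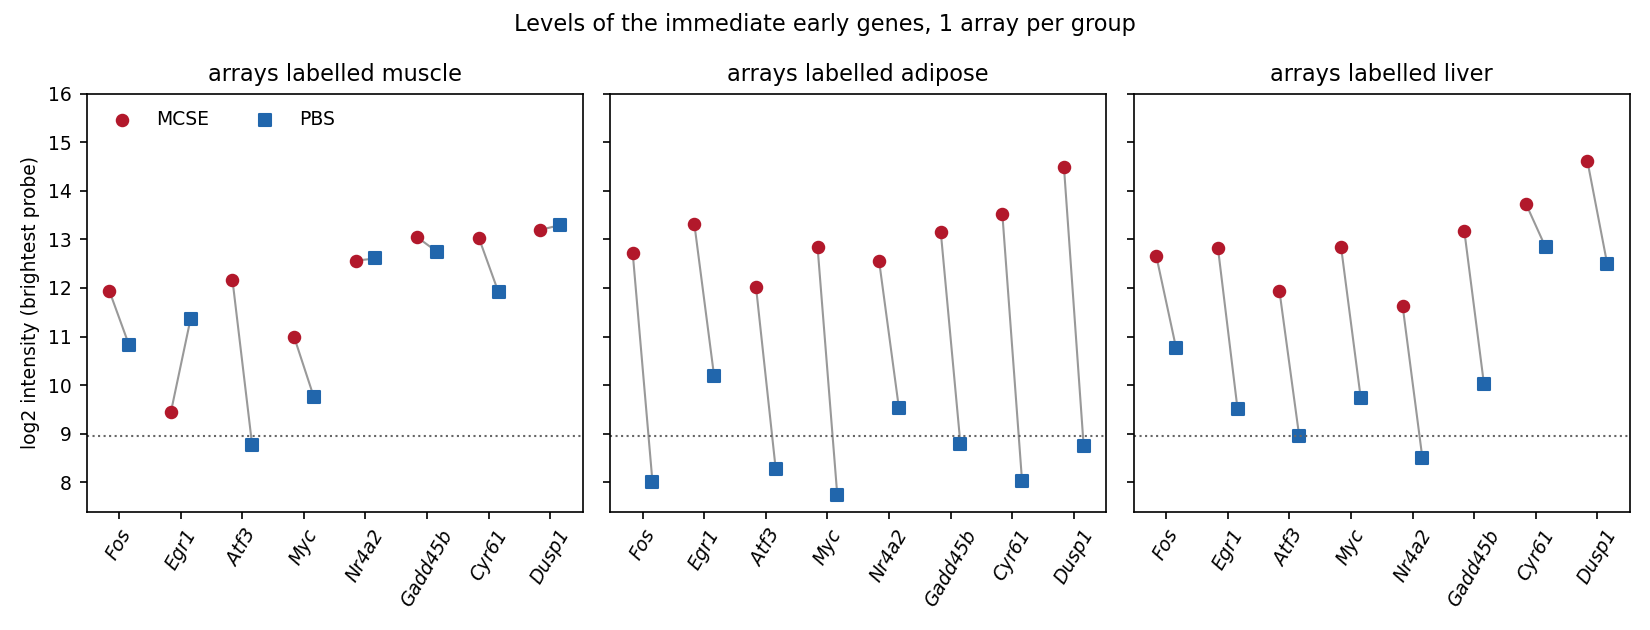
Log2 intensity of the brightest probe of each gene on the MCSE array (red circles) and the PBS array (blue squares) of each tissue label, with the dotted line at the median of all probes (8.95). The red circles lie above the blue squares for all 8 genes on the adipose and liver labels and for 5 on the muscle label, where Egr1 lies at 9.44 with MCSE and 11.36 with PBS.

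Read against all genes, the muscle count was 4 of 8 at least 2-fold higher, where 3.90% of the 10711 genes measured were, and 1 of 8 lower, where 1.88% were. On the liver label it was 7 of 8 higher, where 8.27% of 11342 genes were, and 0 of 8 lower, where 6.01% were. Because these differences chose the genes, nothing is read from the gap to the background. A gene counted as measured when at least 1 array of the pair reached the median of all probes, and all 8 did in every pair. Atf3 in muscle (8.77 with PBS) and Nr4a2 on the liver label (8.50 with PBS) did so only through the MCSE array. The same held for several members on the adipose label, named below, so these counts and ranks rest partly on dim PBS levels. The median difference of the 8 was 0.71 in muscle and 3.04 on the liver label, beside -0.05 and -0.02 over all measured genes. In muscle Atf3 ranked 13 from the top of 10711 genes and Egr1 30 from the bottom, whereas Myc, Cyr61 and Fos ranked 257, 333 and 342. On the liver label Egr1 ranked 21 of 11342, Gadd45b 28, Nr4a2 31, Myc 34 and Atf3 42, while Dusp1 ranked 122, Fos 176 and Cyr61 1184.

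Set side by side, 3 genes (Fos, Atf3 and Myc) were at least 2-fold higher in both pairs, as were 1.05% of the 9578 genes measured in both. Egr1 was the 1 member at least 2-fold lower in muscle and higher on the liver label, a combination held by 18 of the 9578 genes (0.188%). Nr4a2 and Dusp1 also had opposite signs, but their muscle differences of -0.05 and -0.10 were under the SD per probe. The members' differences ranged from -1.92 to 3.40 in muscle and from 0.90 to 3.33 on the liver label.

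**Figure D2:**
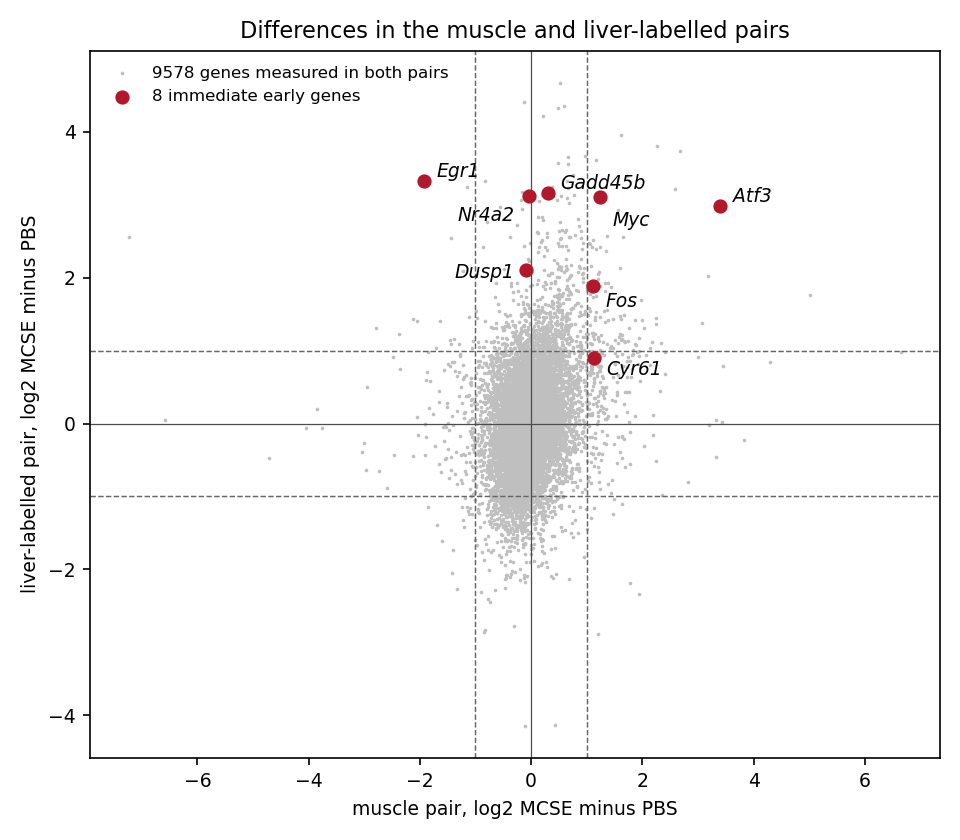
Log2 MCSE minus PBS in the muscle pair (horizontal axis) against the liver-labelled pair (vertical axis) for 9578 genes measured in both (grey) and the 8 members (red), with dashed lines at 2-fold. Egr1 is the only member on the upper left at -1.92 and 3.33, Atf3 on the upper right at 3.40 and 2.98, and Nr4a2, Gadd45b and Dusp1 near 0 in muscle.

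Another, dimmer probe existed for 4 members (Fos, Myc, Nr4a2 and Cyr61), and it often gave another answer. The dimmer Fos probe (mMR027224) lay between 8.50 and 8.92 on all 6 arrays, below the median of all probes, and differed by -0.03 in muscle and -0.08 on the liver label. That of Nr4a2 (mMR030449) was as dim on the muscle and liver arrays and differed by -0.18 and -0.05. Neither repeated the liver-label difference of its brighter probe, and whether these dim probes detect the transcript was not tested. The dimmer Myc probe (mMC018043) was above the median on these 4 arrays, with 9.77 on the MCSE muscle array against 9.49 on its PBS counterpart, and 9.75 on the MCSE liver array against 9.19 on its PBS counterpart. Its differences of 0.28 and 0.55 kept the sign of the brighter probe and were within the SD per probe.

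The 2 Cyr61 probes were both well lit. The dimmer (mMC011519) lay at 11.28 on the MCSE muscle array, against 10.53 on its PBS counterpart. Its liver-labelled arrays had 11.99 with MCSE, against 10.43 with PBS. It differed by 0.75 in muscle and 1.56 on the liver label, so that the 2 probes fell on opposite sides of 2-fold in each pair. When the probes of each gene were averaged, 2 members (Egr1 and Atf3) passed 2-fold in muscle and the median difference on the liver label was 1.97. Egr1, Atf3, Gadd45b and Dusp1 had a single probe and no such check.

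**Figure D3:**
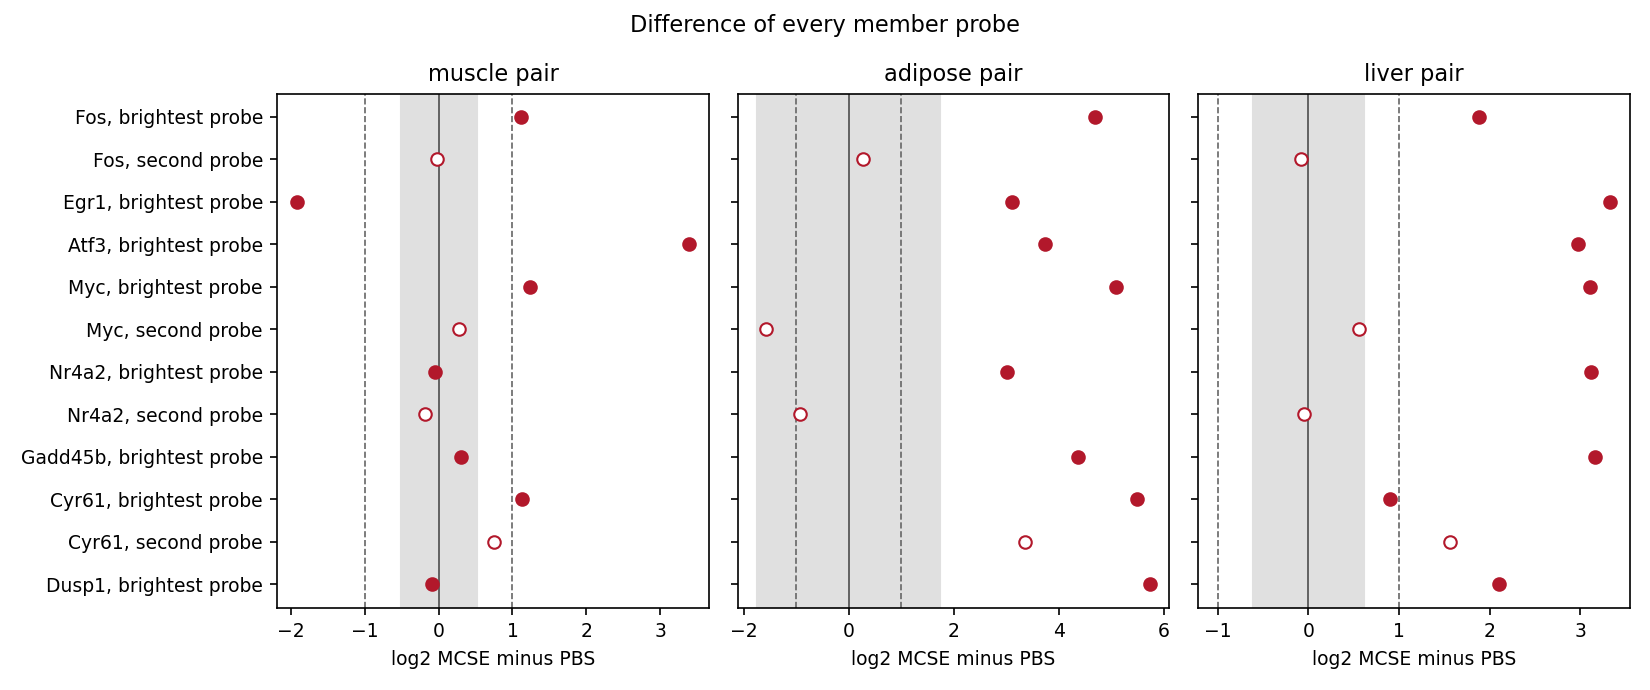
Log2 MCSE minus PBS of each of the 12 probes in the muscle, adipose and liver pairs, with filled circles for the brightest probe of a gene and open circles for the dimmer one. The grey band spans the SD per probe (0.517, 1.74 and 0.611) either side of 0 and dashed lines mark 2-fold; the dimmer probes of Fos and Nr4a2 lie near 0 in muscle and liver, and the axes differ between panels.

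The adipose arrays gave a further pair, with 8 of 8 members 2-fold higher or more, but so were 37.5% of all 13135 genes measured, and 34.3% were lower. The MCSE adipose array repeated the MCSE liver array for 7 of the genes to within 0.48, and Nr4a2 was 0.93 higher on it, so it adds no independent sample of the MCSE state. The PBS adipose array was the dimmest of the 6 for Fos (8.01), Atf3 (8.28), Myc (7.74, the floor set on low values), Gadd45b (8.78), Cyr61 (8.02) and Dusp1 (8.75). All 6 of these levels lay below the median of all probes (8.95), so the size of their differences is poorly fixed and they are not ranked. The dimmer Myc probe went against the brighter, at -1.58 against 5.10, as did that of Nr4a2, at -0.94 against 3.01. The dimmer Fos probe differed by 0.28 against 4.70, and that of Cyr61 by 3.35 against 5.50.

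On the brightest probes, 5 members had every MCSE array above every PBS array across the 3 labels. The same held for 4.17% of the 13864 genes measured in any pair. Because the muscle and liver differences chose the members, nothing is read from that gap. The 3 labels are not replicates of the treatment, since the MCSE adipose array nearly repeats the MCSE liver array. For Atf3 the 3 MCSE arrays lay at 11.93 to 12.17 and the PBS arrays no higher than 8.95. Fos (at least 11.95 with MCSE, at most 10.83 with PBS) and Myc (at least 10.999 and at most 9.76) were separated by over 1. Their dimmer probes overlapped, with at least 8.50 with MCSE and at most 8.92 with PBS for Fos, and 9.73 and 11.31 for Myc. The dimmer Cyr61 probe did not overlap (11.28 and 10.53). Gadd45b (13.04 and 12.75, both in muscle) was separated by less than the SD per probe of the muscle pair. Cyr61 was also narrowly separated, at 13.03 on the MCSE muscle array and 12.84 on the PBS liver array. That gap crosses labels, which the SD per probe does not gauge. Egr1, Nr4a2 and Dusp1 overlapped between the treatments.

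Some of these differences came with a low level on the PBS liver array. Nr4a2 and Gadd45b were at least 2-fold dimmer on it than on each of the muscle, MCSE adipose and MCSE liver arrays, as were 403 of the 938 genes that were 2-fold higher on the liver label (43.0%). The rule itself requires the MCSE liver array to be 2-fold brighter than the PBS liver array. All 403 such genes, 3.55% of the 11342 measured, therefore came from the 938. Without them, 5 of the 6 members left were 2-fold higher on the liver label, and the share of all genes under that removal was not computed. The liver difference chose the members, so nothing is read from this count. Fos, Atf3, Myc and Egr1 did not meet that rule of being at least 2-fold dimmer. For Fos, Atf3 and Myc, PBS muscle minus PBS liver was 0.06, -0.18 and 0.04. The SD per probe does not gauge such differences of level between labels. Egr1 was as low on the MCSE muscle array. These comparisons cross tissue labels, and whether the PBS liver array was low for its own label was not tested. The MCSE adipose array set against PBS liver had 7 of 8 members past 2-fold, and the share of all genes in that contrast was not computed. Nothing is read from this count, which is no separate evidence, since the MCSE adipose array nearly repeats the MCSE liver array.

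Markers of other cell types moved with some of the differences, and in bulk tissue fewer cells of a type and less RNA per cell cannot be told apart. Of the kidney markers, 5 of 6 passed 2-fold upward with MCSE on the liver label, and their summed intensity (log2) was 17.24 on the MCSE array, against 16.65 on the PBS array. In muscle 2 of 4 measured kidney markers were higher, with sums of 13.36 on the MCSE array and 11.42 on the PBS array. Macrophage markers were higher in 1 of 5 on the liver label (13.82 with MCSE, 13.24 with PBS) and in 0 of 5 in muscle (13.24 with MCSE, 12.99 with PBS). Neutrophil markers were higher in 1 of 4 in muscle (12.94 with MCSE, 12.15 with PBS) and lower in 1 of 2 on the liver label (13.28 with MCSE, 14.09 with PBS). Endothelial markers differed by 2-fold in 0 of 5 in either pair, and fibroblast markers in 0 of 6 in muscle and 1 of 6 on the liver label. Of adipocyte, hepatocyte and lymphocyte markers on the liver label, 1 of 5 was higher, 1 of 5 lower and 1 of 3 lower with MCSE, and in muscle 0 of 5 and 0 of 4 adipocyte and lymphocyte markers passed 2-fold and 1 of 4 hepatocyte markers was lower. The part of these cells in the members' differences was not tested.

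Beyond the 8 members, 79 other immediate early genes in 7 role lists were looked up, of which 76 were on the array. The lists were chosen with earlier results of these data known, so nothing is read from their gaps to all genes, here or below. On the liver label 22 of the 68 measured passed 2-fold upward and 1 downward, beside 8.27% and 6.01% of all genes. The median of the 68 was 0.47 beside -0.02. Some of the 22 counted as measured only through the MCSE array, such as Fosb (8.51 with PBS) and Egr4 (8.70 with PBS). Others were Dusp6 (8.13 with PBS), Ankrd1 (8.25 with PBS), Arc (7.90 with PBS) and Thbs1 (8.40 with PBS). These PBS levels lay below the median of all probes (8.95). In muscle 3 of 60 were higher and 2 lower, with a median of 0.04 beside -0.05, so the share higher (5.0%) was close to the 3.90% of all genes. On the adipose label 37 of 69 were higher and 17 lower, beside 37.5% and 34.3% of all genes.

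Among the relatives of the member transcription factors, 2 of 8 measured AP-1 genes were 2-fold higher on the liver label, with a list median of -0.04. Fosb, a partner of Jun like Fos, was 2.35 higher, at 10.87 with MCSE and 8.51 with PBS, and Junb was 1.38 higher. Jun itself differed by -0.53, Fosl2 by -0.62 and Jund by -0.79. In muscle 0 of 7 AP-1 genes reached 2-fold. The EGR list, which also holds the EGR corepressors Nab1 and Nab2, had 2 of 5 higher on the liver label and a median of -0.17. Egr4 lay at 11.20 with MCSE and 8.70 with PBS on the liver label and Egr2 was 2.12 higher there, whereas Egr3 differed by -0.56. The 4 measured in muscle ranged from -0.30 to 0.65, beside -1.92 for Egr1. Nr4a1, the sister receptor of Nr4a2, lay at 12.41 on the MCSE liver array, against 9.996 on the PBS liver array. In muscle it lay at 13.33 with MCSE, against 14.20 with PBS. The differences were 2.42 and -0.87, with the same signs as those of Egr1 and Nr4a2.

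Gadd45a and Gadd45g, the relatives of Gadd45b, stayed under 2-fold in both pairs. So did 8 of 8 measured phosphatase and Sprouty genes in muscle and 8 of 10 on the liver label, where Dusp6, a phosphatase for ERK, was 1.02 higher and Dusp10, one for p38 and JNK, was at -1.13. In the list of CCN genes and YAP targets, Nov, a relative of Cyr61, was 1.04 higher on the liver label and Ankrd1, a muscle stress protein, 1.00, and 0 of 5 reached 2-fold in muscle. Dusp6 and Ankrd1 counted as measured on the liver label only through the MCSE array.

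Of the 44 remaining early genes, the longest list, 14 of 37 measured (37.8%) were at least 2-fold higher on the liver label and 0 lower, beside 8.27% and 6.01% of all genes. The share was 40.0% in the much shorter EGR and CCN lists. Tnfaip3, which restrains NF-kB, was 2.83 higher and Zfp36, which destabilises cytokine mRNAs, 2.62 higher. Zfp36l1, a relative of Zfp36, was 2.09 and the antiproliferative gene Btg2 1.85 higher. In muscle Ptgs2, the inducible cyclooxygenase, was 1.63 higher on its brighter probe and 0.46 on a dim one. The brighter probe lay at 7.92 on the PBS muscle array and counted as measured only through the MCSE array. Hbegf, an EGF receptor ligand, was 1.15 higher, and Zfp36l1 (-1.22) and Errfi1 (-1.15), an inhibitor of the EGF receptor, were lower. Another Errfi1 probe differed by 0.01, and the other probes of Zfp36l1 by -0.20 and -0.29 in muscle and by 0.27 and 0.28 on the liver label.

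**Figure D4:**
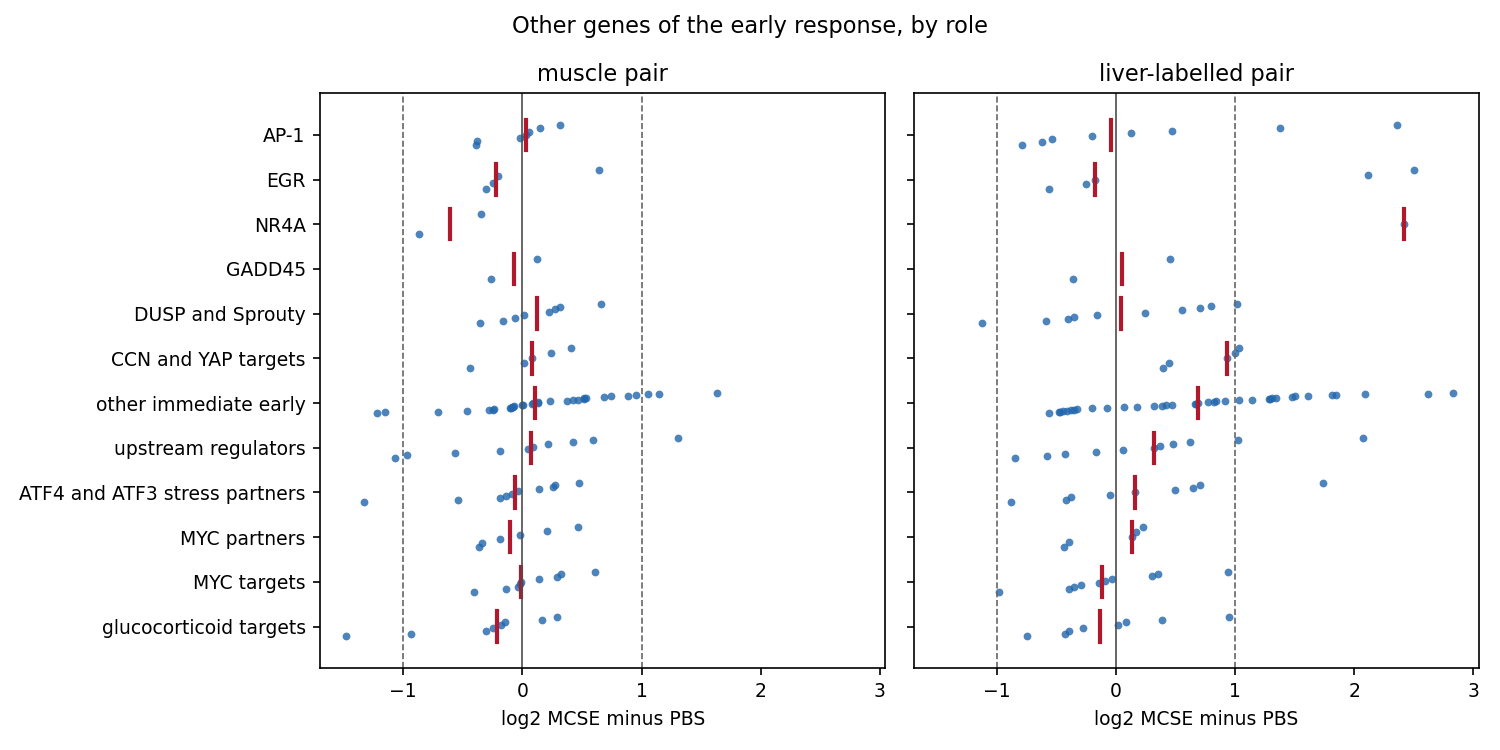
Log2 MCSE minus PBS of the measured genes of each role list (blue points) in the muscle and the liver-labelled pair, with the list median in red and dashed lines at 2-fold. In muscle nearly all points lie within the dashed lines, while on the liver label 14 of 37 genes of the list named other immediate early lie beyond 2-fold on the higher side.

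Genes upstream and downstream of the members were also looked up. Of 11 measured upstream regulators on the liver label, Rela, the p65 subunit of NF-kB, was 2.08 and the ERK-activated kinase gene Rps6ka3 1.03 higher. In muscle, of 10 measured, Mkl1, a coactivator of serum response factor, was 1.30 higher on its brighter probe and 0.35 on a dim one, and Stat3 was at -1.07 on 1 probe and -0.41 on another. The brighter Mkl1 probe lay at 8.06 on the PBS muscle array and counted as measured only through the MCSE array. Stress partners of Atf3 were under 2-fold except Myd116 (now Ppp1r15a), which relieves the block of translation, at 1.74 on the liver label, and Chac1 at -1.33 in muscle. MYC targets were at 2-fold in 0 of 9 in muscle and 0 of 10 on the liver label, with medians of -0.01 and -0.12, and MYC partners in 0 of 6 and 0 of 5. Glucocorticoid targets, examined because Dusp1 is also induced by that hormone, had 0 of 8 higher in either pair and 1 lower in muscle, Ddit4 at -1.48. Of all measured genes, 3.90% were higher and 1.88% lower in muscle, and 8.27% and 6.01% on the liver label. Beside those shares, 0 in lists this short cannot show that the targets stayed unchanged.

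For likeness, each member's brightest probe was correlated over the 6 arrays with 12474 genes measured in muscle or liver, as a description of profiles that share the same 6 arrays, the distant PBS adipose array included. Nr4a2 was closest to the prostaglandin receptor gene Ptger4 (Pearson r = 0.9995), which differed by 4.41 on the liver label and -0.12 in muscle, and to Onecut1 (0.9988). Egr1 was closest to Wnt9b (0.982) and Clk2 (0.970), and Atf3 to Ruvbl2 (0.993) and Fbxo36 (0.979). A high r did not mean a difference of like size. Wnt9b differed by -0.31 in muscle and 0.60 on the liver label, and Ruvbl2 by 0.52 and 0.41, whereas Onecut1 differed by 3.06 on the liver label. Fos was closest to Arhgap6 and 4933426M11Rik (0.997 and 0.996), Myc to Sdf2 and Spert (0.998 each), and Gadd45b to St7l and Zfp75 (0.994 each). Cyr61 was closest to Cdk5rap3 and 6230419C23Rik (0.999 each), and Dusp1 to Slc6a3 and Foxn2 (0.999 and 0.998). Among the members themselves, Fos was most like Dusp1 (0.973), and Egr1 had no member closer than Myc (0.715).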

How the data were processed

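RNA from each tissue was amplified and read in a single channel (Cy5) on mouse arrays, per the labels' protocols. The authors deposited a table of normalized intensity values on a linear scale, 29922 probes by 6 arrays. Limma is named in the submitters' processing notes, with no version; background correction and normalization steps are not given in the sources used here. Sorted values agreed between columns to within 0.0385 (log2), so the arrays had been brought to a shared distribution, which assumes that overall brightness was equal. Probes were named through the platform annotation (21020 with 1 symbol, 8902 without a single one), and list symbols were matched to older array symbols through a RefSeq gene table (GRCm38.p6).

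Here intensities under the 5th percentile (214.2) were raised to it, log2 was taken, each gene was read from its brightest probe, and MCSE minus PBS was computed per tissue label. No p-value was computed. The SD per probe came from the 2 brightest measured probes of each gene with at least 2 (1504 in muscle, 1653 in liver, 2068 in adipose). The members and lists were chosen with earlier results of these data known. The rule for naming took every member probe, up to 4 list genes past 2-fold per label with the largest differences, and the 2 most alike profiles per member; Jun, Jund, Fosl2, Egr3, the Gadd45 and Nab genes, muscle Nr4a1 and probes other than the brightest of list genes fall outside that rule and were picked with their values known. Alternatives changed normalization, centring, a brightness trend, the floor, an added 32, the probe rule, the dim-probe filter and the threshold. Python 3.11.15, numpy 2.4.6, pandas 2.3.3, statsmodels 0.14.6 and matplotlib 3.10.9 were used.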

Additional observations from a re-analysis of the deposited data

Results flagged for a closer look

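Egr1, Nr4a2, Dusp1 and Zfp36l1 had opposite signs in the muscle and liver-labelled pairs, each from 1 array per group, and the difference between the pairs was not tested. The Egr1 difference was -1.92 in muscle and 3.33 for liver. For Nr4a2 it was -0.046 in muscle and 3.12 for liver, and for Dusp1 -0.096 in muscle and 2.11 for liver, both muscle values being under the SD per probe. The brightest Zfp36l1 probe gave -1.22 in muscle and 2.09 for liver.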

How the results depend on the processing

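When the probes of each gene were averaged, 2 members passed 2-fold in muscle in place of 5, the members' median on the liver label was 1.97 in place of 3.04, and 3 other immediate early genes passed in muscle in place of 5; averaging brings in dim probes by construction. An upper quartile filter left 3 of these in muscle, from fewer genes tested. At 1.5-fold, 13 other immediate early genes passed in muscle and 36 on the liver label. Under the settings listed with the processing and the additions named below, no member difference past 2-fold changed sign, and Egr1 ranged from -1.92 to -1.86 in muscle and from 3.27 to 3.81 on the liver label. The filters on dim probes and the floor left each muscle difference of a member as it was, and quantile normalization started from columns that already shared a distribution, so these settings say nothing of stability. The members' liver count was 7 in each setting that kept 2-fold and all members. With averaged probes these 7 included Cyr61 (1.23) and left out Fos (0.90). The count was 8 at 1.5-fold, and 5 after the removal of genes dim on the PBS liver array, which took out 2 members. The use of the MCSE adipose array and the removal of genes dim on the PBS liver array were chosen after seeing the data. A fit of treatment with the tissue label as a block, which 6 arrays would allow, was not run, because the muscle and liver differences chose the members. The number of arrays limits the precision.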
